A study of Mus musculus with 12 samples.

Results

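The clustered replication-dependent histone genes encode the core histones H2A, H2B, H3 and H4 and the linker histone H1, and were taken as all entries of the expression table whose symbol begins with Hist1h, Hist2h, Hist3h or Hist4h. The table held 68 such genes among 23235, of which 54 belong to the Hist1 cluster, 10 to Hist2, 3 to Hist3 and 1 to Hist4. By family, 6 encode H1, 18 H2A, 19 H2B, 12 H3 and 13 H4. Hist1h1t (linker histone H1t), Hist1h2aa (TH2A) and Hist1h2ba (TH2B) are the testis forms, and the remaining 65 are called the other histone genes here.

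RNA was measured in spermatocytes of C57BL/6 mice, sorted by flow cytometry with a purity check, in 12 libraries of 4 groups with 3 libraries each. The groups were Rnaseh1 knock-out pachytene, wild-type (WT) pachytene, Rnaseh1 knock-out leptotene/zygotene and WT leptotene/zygotene cells. In the first meiotic prophase, leptotene and zygotene (together LZ) come before pachytene. RNase H1 cuts RNA that is paired with DNA. The design of the knock-out allele, any Cre driver and the age of the mice are not given in the sources used here, nor is it stated whether replicates came from separate animals, so p-values measure the spread between these libraries, which may be technical.

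The mRNAs of these genes are made mainly in S phase, when new DNA is packed into nucleosomes. Most of them end in a conserved stem-loop, bound by SLBP, in place of a poly(A) tail, and some of the genes also give rise to longer, polyadenylated transcripts, which are known from differentiated cells. In the male germ line, TH2A, TH2B and H1t replace a large part of their somatic counterparts during meiosis. The libraries were made from poly(A) RNA by way of amplified cDNA, so a histone mRNA without a poly(A) tail could enter them only to the extent that it passed these steps.

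The sequences below show what the genes carry at both ends. The stem-loop is given for 6 genes that the results turn on, with the paired arms in capitals and the loop in lower case, from the longest GENCODE M21 transcript (build GRCm38).
Hist1h1t: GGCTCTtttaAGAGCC
Hist3h2a: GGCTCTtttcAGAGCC
Hist2h3c1: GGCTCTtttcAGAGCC
Hist1h4h: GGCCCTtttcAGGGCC
Hist1h4m: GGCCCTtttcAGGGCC
Hist1h4a: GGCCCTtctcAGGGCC

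The annotated transcript of Hist1h4m ran on for 3 bases after the stem-loop and that of Hist1h4h for 46. The annotation went on for 185 bases in Hist1h1t, 1167 in Hist2h3c1 and 1643 in Hist3h2a. The H4 genes Hist1h4h and Hist1h4m carry the same 16 letters, and so do Hist3h2a and Hist2h3c1, although they encode different histones. A stem-loop of the consensus was found in the longest transcript of 45 of the 68 genes, and an AATAAA within the last 50 bases in 12. No stem-loop was found in the longest annotated transcript of Hist1h2aa, Hist1h2ba, Hist2h2be, Hist1h2bp or Hist1h1a. A stem-loop past the annotated end would be missed, and the annotated transcripts of Hist1h2aa and Hist1h2ba have only 390 and 384 bases. That of Hist2h2be has 2620 bases, and a stem-loop that departs from the searched pattern of 16 letters would be missed too. The count of 45 and the genes without a stem-loop therefore describe the annotation and the pattern searched, and not the full mRNAs.

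Promoter windows (250 bases before to 50 after the start, RefSeq, GRCm38.p6) are given for the testis forms, for Hist3h2a, the highest in KO-labelled pachytene cells, and for Hist1h1a and Hist1h4m, which were lower in pachytene. Capitals mark the octamer ATTTGCAT, the CCAAT box and TATAAA, on either strand.
Hist1h1t, chr13:23695561-23695860 (+): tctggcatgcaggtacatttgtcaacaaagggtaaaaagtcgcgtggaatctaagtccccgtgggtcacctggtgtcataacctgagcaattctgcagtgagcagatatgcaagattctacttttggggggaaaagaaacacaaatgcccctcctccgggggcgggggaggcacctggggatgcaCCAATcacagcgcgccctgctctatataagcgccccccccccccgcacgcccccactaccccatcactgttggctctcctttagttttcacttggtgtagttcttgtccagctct
Hist1h2aa, chr13:23934187-23934486 (+): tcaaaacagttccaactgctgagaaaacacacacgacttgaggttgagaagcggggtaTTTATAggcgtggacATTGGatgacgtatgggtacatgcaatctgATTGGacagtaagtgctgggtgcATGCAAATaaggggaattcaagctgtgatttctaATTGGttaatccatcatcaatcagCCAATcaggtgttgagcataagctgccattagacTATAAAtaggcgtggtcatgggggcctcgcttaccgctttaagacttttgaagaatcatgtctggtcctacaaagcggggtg
Hist1h2ba, chr13:23934107-23934406 (-): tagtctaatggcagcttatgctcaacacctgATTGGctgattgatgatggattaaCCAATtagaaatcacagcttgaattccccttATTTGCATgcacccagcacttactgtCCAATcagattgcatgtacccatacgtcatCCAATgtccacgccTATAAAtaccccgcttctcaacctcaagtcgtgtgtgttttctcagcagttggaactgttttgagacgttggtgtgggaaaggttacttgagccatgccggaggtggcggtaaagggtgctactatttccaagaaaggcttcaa
Hist3h2a, chr11:58954435-58954734 (+): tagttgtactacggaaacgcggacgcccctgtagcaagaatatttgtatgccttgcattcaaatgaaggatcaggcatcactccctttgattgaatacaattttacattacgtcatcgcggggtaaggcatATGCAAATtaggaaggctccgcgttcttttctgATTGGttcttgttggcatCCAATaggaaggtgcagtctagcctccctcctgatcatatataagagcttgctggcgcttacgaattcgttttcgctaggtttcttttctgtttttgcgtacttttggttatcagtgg
Hist1h1a, chr13:23763418-23763717 (+): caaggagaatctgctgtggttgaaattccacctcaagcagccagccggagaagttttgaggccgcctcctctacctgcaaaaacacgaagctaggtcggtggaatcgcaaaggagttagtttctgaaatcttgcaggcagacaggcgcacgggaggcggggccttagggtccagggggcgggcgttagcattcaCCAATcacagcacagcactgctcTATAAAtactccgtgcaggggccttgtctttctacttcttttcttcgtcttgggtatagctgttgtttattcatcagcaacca
Hist1h4m, chr13:21811496-21811795 (+): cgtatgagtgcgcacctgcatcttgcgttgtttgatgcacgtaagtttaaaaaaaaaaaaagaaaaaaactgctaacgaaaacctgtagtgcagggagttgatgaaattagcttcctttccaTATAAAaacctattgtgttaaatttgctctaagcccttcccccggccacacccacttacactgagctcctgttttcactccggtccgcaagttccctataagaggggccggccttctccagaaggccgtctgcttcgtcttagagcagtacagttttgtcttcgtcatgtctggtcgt

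Hist1h2aa and Hist1h2ba lie head to head, and their windows share 220 bases, so that the single octamer and the 4 CCAAT letters in each window are the same sequence read from both strands. The octamer, the binding site of POU factors known from H2B promoters, stood in 13 of the 60 histone genes with a matched promoter (21.7%), against 1.74% of 32851 promoters in the RefSeq table. CCAAT stood in 51 of 60 (85%) against 37.4% of all promoters, and TATAAA in 35 of 60 (58.3%) against 13.6%. AACNG, the core of the MYB motif, stood in 51 of 60 (85%) against 80.3%. Of the testis forms, Hist1h1t held CCAAT but neither the octamer nor TATAAA. Hist1h4m held TATAAA alone of the first 3 motifs, and Hist3h2a held the octamer and 2 CCAAT letters without TATAAA. These are counts of letters in a window of fixed length and no test was made of them.

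The values are FPKM, fragments per kilobase of transcript scaled by the authors with ERCC spike-in RNA, so that they can be read as levels per length. Their sum over all genes was 4811570 to 6702160 in knock-out pachytene libraries, 3319970 to 4183730 in WT pachytene, 430372 to 512468 in knock-out LZ and 609831 to 885259 in WT LZ libraries. Rnaseh1 itself was at 77.3, 68.9 and 94.3 FPKM in the knock-out pachytene libraries, against 52.7, 51.7 and 56.8 in WT pachytene, and at 11.02, 18.3 and 14.8 in the knock-out LZ libraries, against 16.1, 20.5 and 16.8 in WT LZ. One value for the whole gene does not show a deleted part, so the level does not check the label, and the libraries are called KO-labelled from here on. Calls throughout are from limma at an adjusted p under 0.05. In pachytene against LZ cells 76.8% of all genes tested were called higher and 2.83% lower in KO-labelled cells, and 80.9% and 0.487% in WT cells. After median-ratio scaling, which sets the median change of all genes near 0, these shares were 31.7% and 29.3%, and 20.4% and 17.8%. Of the list of 12 pachytene markers, 12 were called higher in pachytene in both genotypes, or 11 in KO-labelled and 8 in WT cells after median-ratio scaling. Of 13 leptotene and zygotene markers tested, 5 were called higher and 5 lower in KO-labelled cells, and 5 and 4 in WT cells. After median-ratio scaling 1 was called higher and 11 lower in KO-labelled cells, and 1 and 8 in WT cells.

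Of the 68 histone genes, 34 reached 1 FPKM in at least 3 libraries and entered the test, among them all 3 testis forms and 31 of the 65 others. This filter passed 9 genes in which a full group of libraries reached 1 FPKM at pachytene but at no LZ group. Among them were Hist1h1t, Hist1h4b, Hist2h2ab and Hist2h3c1. In 3 genes, Hist1h2ag, Hist1h3a and Hist1h4m, a full group did so at LZ but at no pachytene group. Stage calls of such genes are not independent of the filter, and counts over the 34 are not counts over the family. Of the 34 that did not enter, 10 were listed at 0 in all 12 libraries and the other 24 reached at most 4.13 FPKM, in Hist1h1b. H4 genes passed most often (10 of 13) and H2A and H3 genes least often (6 of 18 and 4 of 12).

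**Figure D1:**
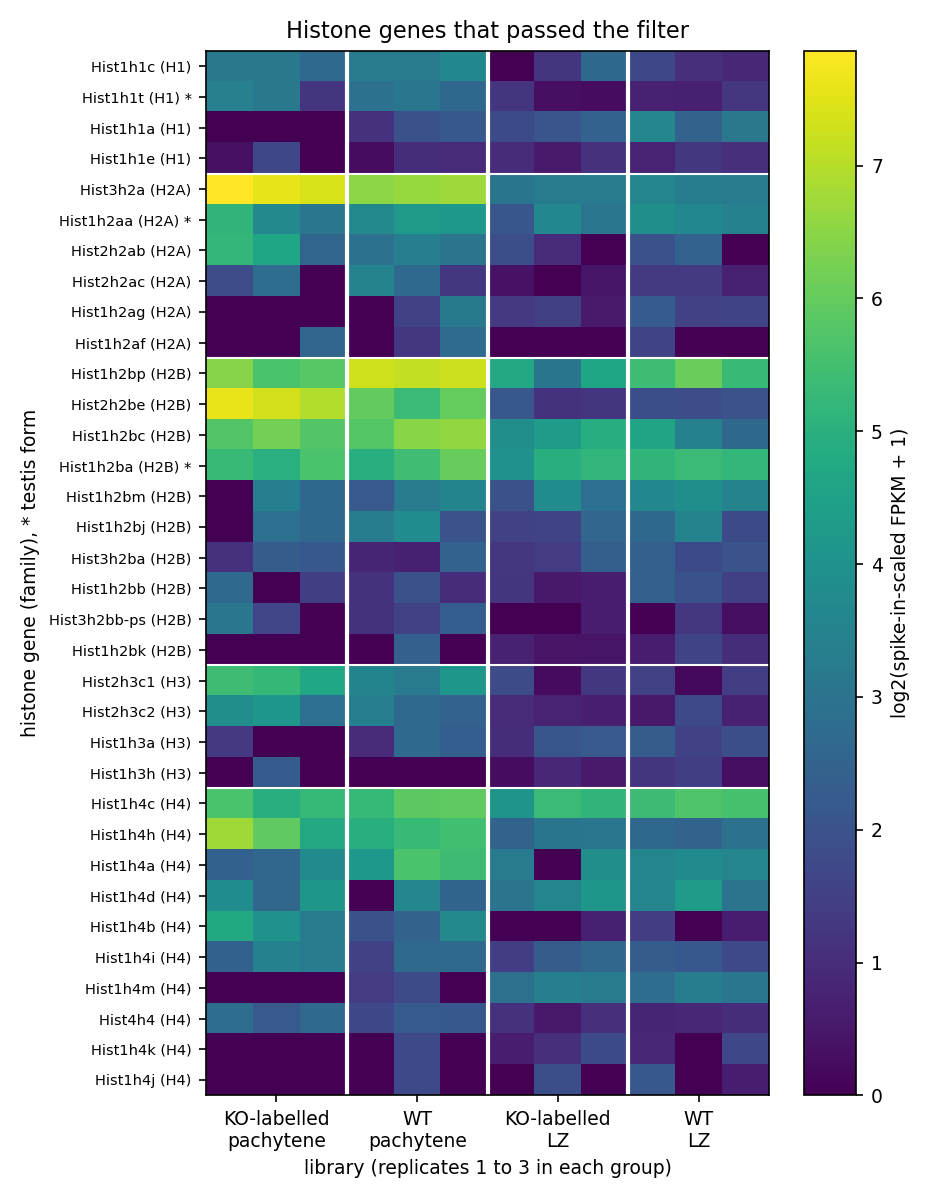
Level of the 34 histone genes that passed the filter (rows, grouped by family, testis forms starred) in the 12 libraries (columns, 3 per group), as log2 of spike-in-scaled FPKM plus 1. Hist3h2a and Hist2h2be are the brightest genes in the KO-labelled pachytene libraries, and Hist1h4m and Hist1h1a are at 0 there.

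The precision of these values differed by stage. In 43 of the histone genes, the values of a library were whole multiples, within 0.02 of a step, of one smallest step, which was read as the value of 1 fragment after the data were seen. For Hist1h4a and 5 other H4 genes with the same step, 1 fragment was worth 4.22 to 5.03 FPKM in KO-labelled pachytene, 2.31 to 2.91 in WT pachytene, 0.509 to 0.601 in KO-labelled LZ and 0.544 to 0.849 in WT LZ libraries. The step was smaller for Hist1h4h, Hist1h4i, Hist1h4m and Hist4h4, at 0.175 to 2.77 FPKM in KO-labelled pachytene and 0.0957 to 1.60 in WT pachytene libraries. Among the 32 tested genes whose step could be read, 10 rested on 3 or fewer fragments over the 3 libraries of the KO-labelled pachytene group, 5 in WT pachytene, 4 in KO-labelled LZ and 1 in WT LZ. A low value at pachytene therefore carries more counting error than the same value at LZ. Intervals and floors from fragments cover counting error only, since amplified cDNA is not a count of molecules.

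All histone genes together made up 0.0132% to 0.0145% of the summed FPKM in KO-labelled pachytene libraries and 0.0172% to 0.0184% in WT pachytene libraries, against 0.0325% to 0.0463% in KO-labelled LZ and 0.0318% to 0.0377% in WT LZ libraries. No pachytene library overlapped an LZ library in this share. H2A genes held 28.8% to 31.4% of the histone sum in KO-labelled pachytene and 19.2% to 21.1% in WT pachytene libraries, against 8.18% to 13.01% in KO-labelled LZ and 10.2% to 13.9% in WT LZ libraries. H4 genes held 16.7% to 21.6% in KO-labelled pachytene and 16.2% to 25.3% in WT pachytene libraries, against 33.8% to 40.3% in KO-labelled LZ and 30.6% to 37.0% in WT LZ libraries. The higher H2A share at pachytene lay in 1 gene, Hist3h2a, which held 23.8% to 26.1% of the histone sum in KO-labelled pachytene and 13.4% to 15.5% in WT pachytene libraries, against 3.47% to 5.24% in KO-labelled LZ and 2.93% to 4.02% in WT LZ libraries. The other H2A genes held 2.78% to 7.54% in KO-labelled pachytene and 5.67% to 5.84% in WT pachytene libraries, against 4.71% to 8.65% in KO-labelled LZ and 6.62% to 9.90% in WT LZ libraries. Of the sum without Hist3h2a and Hist2h2be, H4 genes held 30.4% to 38.3% in KO-labelled pachytene and 22.0% to 31.6% in WT pachytene libraries, against 36.6% to 42.5% in KO-labelled LZ and 32.2% to 38.9% in WT LZ libraries, so that in KO-labelled cells the stages overlapped.

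The highest gene differed by group. Hist3h2a led in KO-labelled pachytene cells with 195 ± 33.9 FPKM, and Hist1h2bp in WT pachytene cells with 150 ± 9.15 FPKM (SD, n = 3). Hist1h4c, an H4 gene, led in KO-labelled LZ cells with 29.9 ± 12.5 FPKM, and Hist1h2bp in WT LZ cells with 49.0 ± 15.0 FPKM. Hist2h2be, an H2B gene, and Hist3h2a together made up 43.6%, 44.9% and 45.6% of the histone sum in the KO-labelled pachytene libraries and 26.3%, 19.9% and 21.5% in the WT pachytene libraries. In KO-labelled LZ libraries they made up 7.64%, 5.02% and 4.01%, and in WT LZ libraries 4.98%, 3.81% and 4.87%.

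Of the testis forms only Hist1h1t was called between the stages on the spike-in scale, and the difference among them was not tested. Hist1h1t, the linker histone that is known to appear in pachytene spermatocytes, was at 9.68, 7.86 and 1.32 FPKM in KO-labelled pachytene and 6.82, 7.59 and 5.31 in WT pachytene libraries, against 1.27, 0.255 and 0.188 in KO-labelled LZ and 0.664, 0.603 and 1.36 in WT LZ libraries. All WT pachytene libraries lay above all WT LZ libraries, while KO-labelled pachytene replicate 3 lay close to the highest LZ values and rested on 2 fragments. In fragments the stages overlapped, with 14, 10 and 2 in KO-labelled pachytene against 16, 3 and 2 in KO-labelled LZ libraries. In WT libraries there were 15, 21 and 14 against 5, 6 and 16. Hist1h1t was called higher in pachytene than in LZ cells in KO-labelled cells (log2 change 2.01 ± 0.48, SE, adjusted p = 0.00141) and in WT cells (2.02 ± 0.48, adjusted p = 0.00147). A full group of its libraries reached 1 FPKM at pachytene only, so these calls are not independent of the filter. Both stage changes lay near the median change of all genes, 2.29 in KO-labelled and 1.64 in WT cells, and after median-ratio scaling the changes were 0.30 and 0.60 and were not called. In bulk libraries, fewer cells of a type and less RNA per cell cannot be told apart.

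Hist1h2ba, the testis H2B, was the highest testis form in all 12 libraries, at 38.0, 30.9 and 49.3 FPKM in KO-labelled pachytene and 30.4, 42.6 and 64.1 in WT pachytene libraries. In LZ cells it was at 15.3, 29.4 and 35.1 FPKM in KO-labelled and 34.4, 40.3 and 35.8 in WT libraries. Pachytene and LZ libraries overlapped in both genotypes, and the changes of 0.60 ± 0.33 in KO-labelled and 0.24 ± 0.33 in WT cells were not called. The same values after median-ratio scaling were -2.28 and -1.76 and were called lower, so the direction of Hist1h2ba between stages depends on the scaling.

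Hist1h2aa, the testis H2A that shares its promoter region with Hist1h2ba, was at 34.2, 12.0 and 7.53 FPKM in KO-labelled pachytene and 12.1, 17.9 and 17.3 in WT pachytene libraries. In LZ cells it was at 3.33, 11.6 and 7.51 FPKM in KO-labelled and 14.1, 11.9 and 10.03 in WT libraries. The spread among the 3 KO-labelled pachytene libraries spanned most values of the other groups, and these libraries held 13, 4 and 3 fragments. Its stage changes, 1.02 ± 0.47 in KO-labelled and 0.36 ± 0.47 in WT cells, were not called, and median-ratio scaling turned them to -1.66 and -1.54, both called lower.

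**Figure D2:**
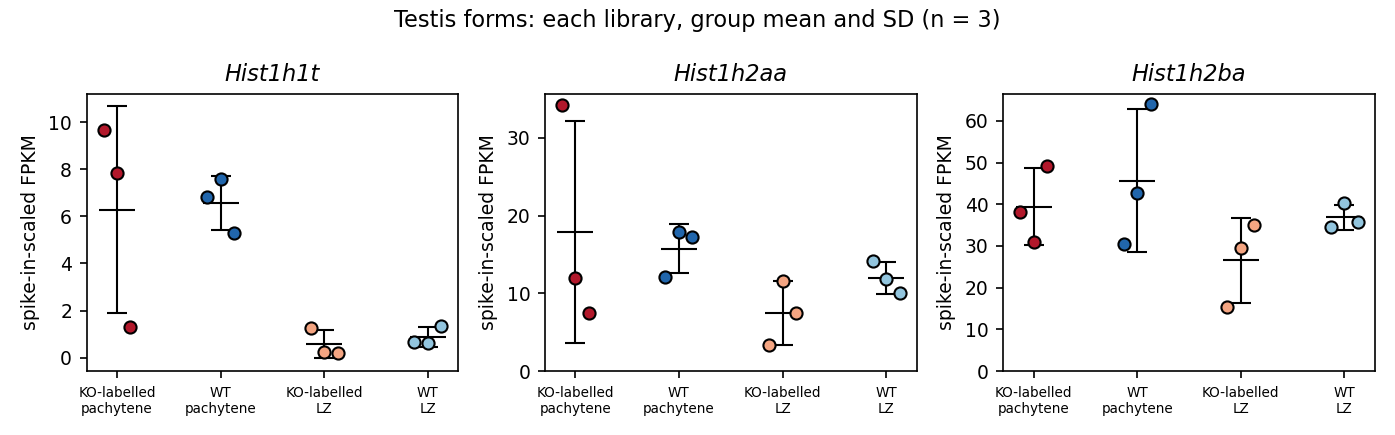
Spike-in-scaled FPKM of Hist1h1t, Hist1h2aa and Hist1h2ba in each of the 12 libraries (points), with the group mean and SD (bars, n = 3). Hist1h1t stands higher in the pachytene groups except in 1 KO-labelled library at 1.32, and the groups of Hist1h2aa and Hist1h2ba overlap between stages, where the direction depends on the scaling.

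Between genotypes, none of the 3 testis forms was called at either stage, and none had an unadjusted p under 0.05 in limma, in the fit of spike-in-scaled values. After median-ratio scaling none was called between genotypes either. At pachytene their log2 changes were -0.32 ± 0.48 for Hist1h1t, -0.07 ± 0.47 for Hist1h2aa and -0.17 ± 0.33 for Hist1h2ba, with KO-labelled and WT libraries overlapping for all 3. At LZ the changes were -0.30 ± 0.48, -0.74 ± 0.47 and -0.53 ± 0.33 in the same order, against a median of -0.43 over all 15400 genes tested. With standard errors of this size, these values do not show an absence of change.

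As a share of the histone sum, the testis forms took 6.54% to 9.16% in KO-labelled pachytene and 8.56% to 11.3% in WT pachytene libraries, against 14.3% to 22.0% in KO-labelled LZ and 17.5% to 20.5% in WT LZ libraries. Their own sum was 50.7 to 81.9 FPKM in KO-labelled pachytene and 49.3 to 86.7 in WT pachytene libraries, against 19.9 to 42.8 in KO-labelled LZ and 47.2 to 52.8 in WT LZ libraries. The sum of the other histone genes was 576 to 893 FPKM in KO-labelled pachytene and 526 to 683 in WT pachytene libraries, against 120 to 194 in KO-labelled LZ and 183 to 248 in WT LZ libraries. The share of the testis forms was lower in all 6 pachytene libraries than in all 6 LZ libraries, while the sum of the other genes was higher in all 6. Hist2h2be and Hist3h2a weigh on this share, with 43.6% to 45.6% of the sum in KO-labelled pachytene and 4.01% to 7.64% in KO-labelled LZ libraries. In WT libraries they held 19.9% to 26.3% and 3.81% to 4.98%. The share of the testis forms without these genes was not computed. The median log2 stage change was 1.02 over the testis forms and 0.62 over the 31 other genes in KO-labelled cells, and 0.36 and 0.41 in WT cells.

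Pachytene was compared with LZ in each genotype. In KO-labelled cells 14 of the 34 tested histone genes were called higher and 4 lower, against 76.8% and 2.83% of all genes tested. In WT cells 12 were called higher and 2 lower, against 80.9% and 0.487% of all genes. The histone genes called higher are a smaller share than this background and those called lower a larger one, and this difference was not tested. Of those called lower, Hist1h3a and Hist1h4m reached 1 FPKM in a full group of libraries at LZ only. Some of those called higher did so at pachytene only, so the filter shapes these shares. The 12 genes called higher in WT were also called higher in KO-labelled cells, and Hist1h1a and Hist1h4m were called lower in both. All 3 pachytene libraries lay above all 3 LZ libraries for 12 histone genes in KO-labelled and 13 in WT cells, and below them for 5 and 3, against 75.9% and 83.0% of all genes above and 2.84% and 0.864% below. After median-ratio scaling the counts were 4 higher and 17 lower in KO-labelled cells and 2 higher and 14 lower in WT cells, against 31.7% and 29.3%, and 20.4% and 17.8%, of all genes. With genes at 0 throughout a group set to their bound or left out, the median change of the other histone genes was 1.11 in KO-labelled cells (26 genes) and 0.41 in WT cells (31 genes). In KO-labelled cells those left out were Hist1h2ag, Hist1h2bk, Hist1h4j and Hist1h4k, with negative changes, and Hist1h2af, with a positive one. That median therefore moved up because mostly low genes were removed.

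Hist2h2be had the highest stage change of the tested histone genes. It was at 193, 159 and 124 FPKM in KO-labelled pachytene and 62.3, 39.7 and 62.8 in WT pachytene libraries, against 3.36, 1.22 and 1.27 in KO-labelled LZ and 2.69, 2.62 and 3.02 in WT LZ libraries. Every pachytene library lay far above every LZ library, on 375 to 951 fragments at pachytene against 46 to 144 at LZ. The log2 change was 5.81 ± 0.30 in KO-labelled cells (adjusted p = 8.82e-10) and 3.86 ± 0.30 in WT cells (adjusted p = 1.21e-07), and after median-ratio scaling it was 3.24 and 2.03, both called.

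Hist3h2a, an H2A gene of the small Hist3 cluster, was at 232, 189 and 165 FPKM in KO-labelled pachytene and 89.0, 99.6 and 103 in WT pachytene libraries, against 7.32, 8.19 and 8.24 in KO-labelled LZ and 11.3, 8.81 and 8.16 in WT LZ libraries. The stages did not overlap, and the libraries of each group lay close together. The log2 change was 4.45 ± 0.21 in KO-labelled cells (adjusted p = 6.34e-10) and 3.24 ± 0.21 in WT cells (adjusted p = 4.56e-08), and both remained called after median-ratio scaling, at 1.58 and 1.27.

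Hist2h3c1, an H3 gene, was at 41.7, 36.4 and 25.1 FPKM in KO-labelled pachytene and 10.7, 8.21 and 17.1 in WT pachytene libraries, against 2.503, 0.186 and 1.44 in KO-labelled LZ and 1.91, 0.132 and 1.71 in WT LZ libraries. Pachytene lay above LZ in both genotypes, and replicate 2 was the lowest LZ library in each. The log2 change was 4.002 ± 0.45 in KO-labelled cells (adjusted p = 1.14e-06) and 2.59 ± 0.45 in WT cells (adjusted p = 0.000121), of which the first but not the second was called after median-ratio scaling. Hist2h3c1 also reached 1 FPKM in a full group of libraries at pachytene only.

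Hist1h2bc, an H2B gene, was at 53.2, 73.3 and 53.5 FPKM in KO-labelled pachytene and 54.1, 87.4 and 94.9 in WT pachytene libraries, against 13.7, 19.3 and 28.8 in KO-labelled LZ and 23.1, 10.1 and 5.17 in WT LZ libraries. It was called higher with log2 changes of 1.54 ± 0.42 in KO-labelled and 2.72 ± 0.42 in WT cells, which median-ratio scaling turned to a called -1.35 in KO-labelled cells and an uncalled 0.76 in WT cells. Hist1h4h, an H4 gene, was at 107, 60.9 and 25.6 FPKM in KO-labelled pachytene and 29.4, 38.3 and 44.1 in WT pachytene libraries, against 4.73, 7.25 and 7.53 in KO-labelled LZ and 5.15, 4.68 and 6.59 in WT LZ libraries. In FPKM both genes stood above LZ in every pachytene library. Hist1h2bc had 57, 69 and 60 fragments in KO-labelled pachytene against 127, 168 and 227 in KO-labelled LZ libraries, and 88, 179 and 185 against 129, 74 and 45 in WT. Hist1h4h had 60, 30 and 15 against 23, 33 and 31, and 25, 41 and 45 against 15, 18 and 30 in WT. In KO-labelled cells the higher FPKM of Hist1h2bc thus came with fewer fragments, each worth more FPKM at pachytene. The change of Hist1h4h was 2.93 ± 0.40 in KO-labelled and 2.56 ± 0.40 in WT cells, both called, and 0.12 and 0.65 after median-ratio scaling, neither called.

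Some calls rested on few fragments. Hist1h4b, an H4 gene, had 6, 3 and 2 fragments in KO-labelled pachytene and 1, 2 and 5 in WT pachytene libraries, against 0, 0 and 1 in KO-labelled LZ and 2, 0 and 1 in WT LZ libraries, and was called higher in both genotypes. Hist2h2ab, an H2A gene, had 14, 8 and 2 fragments in KO-labelled pachytene and 4, 7 and 5 in WT pachytene libraries, against 9, 3 and 0 in KO-labelled LZ and 6, 12 and 0 in WT LZ libraries, and was called higher in both. For both genes the difference in FPKM came with fragment numbers that overlapped or nearly overlapped between the stages, as they did for Hist1h1t and Hist1h4h. Hist1h4b and Hist2h2ab also reached 1 FPKM in a full group of libraries at pachytene only, so their stage calls are not independent of the filter. In WT cells Hist2h2ab (1.64 ± 0.71) lost its call without WT LZ replicate 3 or without any 1 WT pachytene library, at 0.89 to 1.72. The same coding sequences recur in the H4 and H3 genes and in several H2A genes, and how the authors assigned fragments that match more than 1 gene is not given in the sources used here, so the division of signal among near-identical genes is uncertain.

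Hist1h1a, which encodes the linker histone H1.1, went the other way. It was listed at 0 in all 3 KO-labelled pachytene libraries and at 1.19, 2.83 and 3.46 FPKM in WT pachytene libraries, against 2.39, 3.21 and 4.54 in KO-labelled LZ and 11.6, 4.72 and 7.65 in WT LZ libraries. These values rested on 0 fragments in KO-labelled pachytene, 2, 6 and 7 in WT pachytene, 23, 29 and 37 in KO-labelled LZ and 67, 36 and 69 in WT LZ libraries. Pachytene lay below LZ in both genotypes without overlap. A count of 0 allows up to 0.924 FPKM over the KO-labelled pachytene group (3 fragments in the group), so Hist1h1a was at least 3.66-fold under the observed mean of KO-labelled LZ libraries (adjusted p = 5.20e-05). In WT cells the log2 change was -1.35 ± 0.34 (adjusted p = 0.00242).

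Hist1h4m, an H4 gene, was at 0 in the KO-labelled pachytene libraries and at 1.60, 2.55 and 0 FPKM in WT pachytene libraries, against 6.45, 9.58 and 8.61 in KO-labelled LZ and 6.08, 8.85 and 7.49 in WT LZ libraries. The LZ libraries held 13 to 32 fragments each and the pachytene libraries at most 2. In KO-labelled pachytene cells it was at least 3.29-fold under the observed mean of KO-labelled LZ libraries, with a limit of 2.495 FPKM (adjusted p = 2.29e-06). In WT cells the log2 change was -2.002 ± 0.38 (adjusted p = 0.000274). Its call as lower held in each fit with 1 library left out and after median-ratio scaling in both genotypes, as did that of Hist1h1a. Hist1h4m, and Hist1h3a below, reached 1 FPKM in a full group of libraries at LZ only, so their lower calls are not independent of the filter. The other genes called lower in KO-labelled cells rested on small numbers. Hist1h3a, an H3 gene, had 1, 0 and 0 fragments in pachytene and 6, 18 and 18 in LZ libraries, and lost its call in 4 of 12 fits with 1 library left out. Hist1h4k, an H4 gene, had none in pachytene and 1, 2 and 4 fragments in LZ libraries, where a count of 0 gives no bound on the fold.

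**Figure D3:**
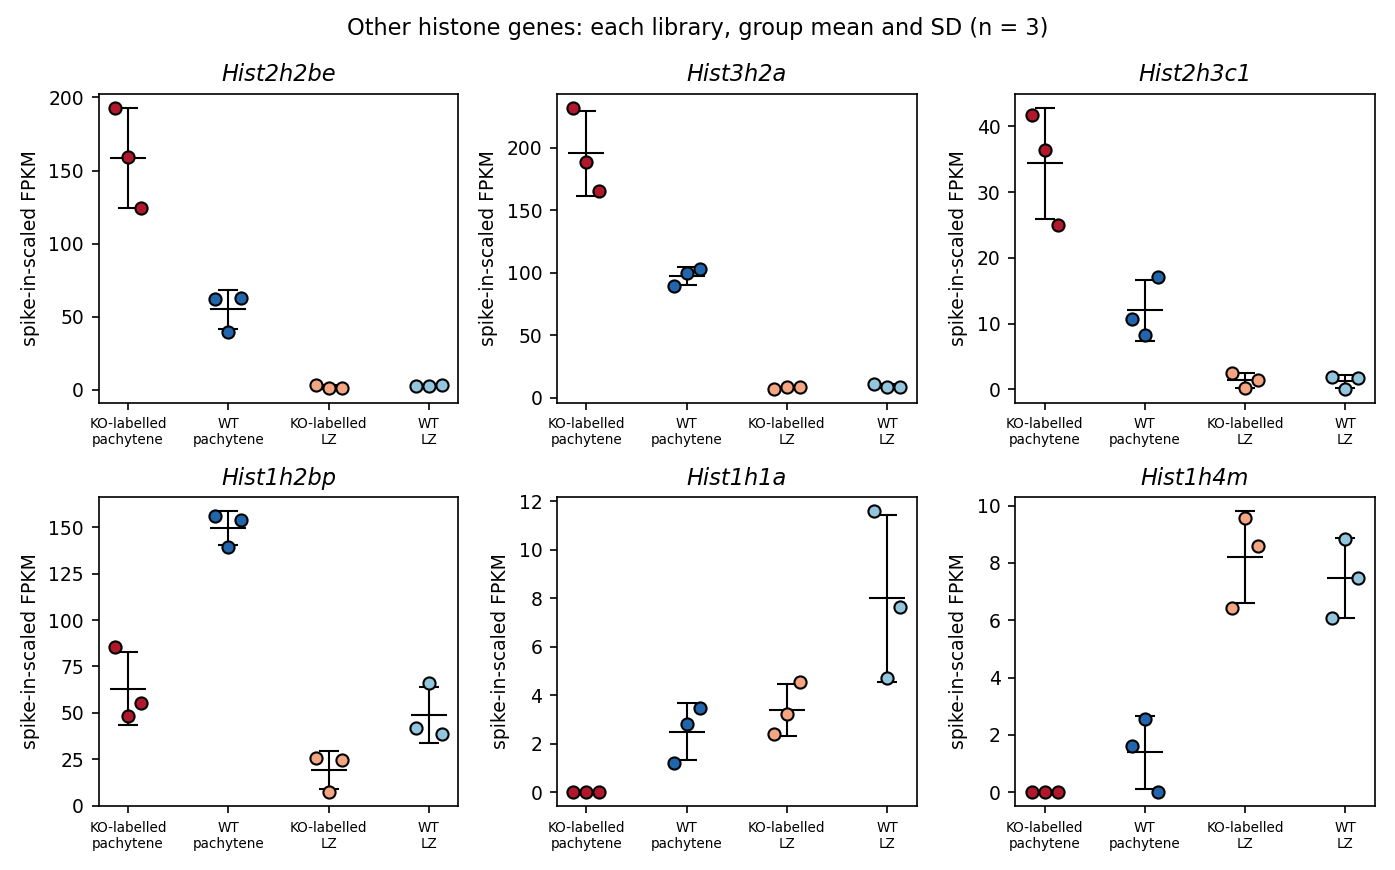
Spike-in-scaled FPKM of 6 other histone genes in each of the 12 libraries (points), with the group mean and SD (bars, n = 3). Hist2h2be, Hist3h2a and Hist2h3c1 are highest in KO-labelled pachytene cells, Hist1h2bp in WT pachytene cells (its direction between stages depends on the scaling), and Hist1h1a and Hist1h4m in LZ cells.

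The stage changes are set here beside the annotated transcripts. Among the 9 tested genes whose longest annotated transcript has 1000 bases or more, 7 were called higher and 0 lower in pachytene, in KO-labelled and in WT cells alike, with median log2 changes of 1.73 and 2.15. Of all genes tested, 76.8% were called higher and 2.83% lower in KO-labelled cells, and 80.9% and 0.487% in WT cells. Among the 25 with shorter transcripts, 7 were called higher and 4 lower in KO-labelled cells and 5 higher and 2 lower in WT cells, with medians of 0.55 and 0.24. Of the 9 long genes, 4 (Hist1h1c, Hist2h3c1, Hist2h3c2 and Hist4h4) reached 1 FPKM in a full group of libraries at pachytene only. All 4 are among the 7 called higher in each genotype. These genes passed the filter through the groups where they are high, so the counts support nothing on transcript length. The 10 genes with AATAAA in the last 50 bases gave 7 called higher and 0 lower in each genotype, and the 24 without it gave 7 higher and 4 lower in KO-labelled and 5 and 2 in WT cells. Hist1h1c, Hist1h1t, Hist2h3c1 and Hist4h4, among those 7, also reached 1 FPKM in a full group of libraries at pachytene only. The counts therefore support nothing on AATAAA. Of the 23 genes with a stem-loop 9 were called higher and 2 lower in KO-labelled and 8 and 1 in WT cells, and of the 11 without one 5 and 2, and 4 and 1. Among the 11 are Hist1h2ba (384 bases), Hist1h2aa (390), Hist1h2af (399), Hist1h3h (411) and Hist1h4k (312). A stem-loop past these annotated ends would be missed, as would one that departs from the searched pattern, so the split supports nothing on stem-loops. After median-ratio scaling the genes with AATAAA gave 3 higher and 2 lower in KO-labelled and 2 and 1 in WT cells, and those without it 1 and 15, and 0 and 13. With the same scaling the genes with a stem-loop gave 3 higher and 11 lower in KO-labelled and 1 and 10 in WT cells, and those without one 1 and 6, and 1 and 4. The long genes then gave 3 higher and 3 lower in KO-labelled cells and 2 and 2 in WT cells, and the shorter ones 1 higher and 14 lower, and 0 and 12. With this scaling 31.7% of all genes were called higher and 29.3% lower in KO-labelled cells, and 20.4% and 17.8% in WT cells. The lengths of 1000 and 50 bases were chosen after the values were seen and no test was made of the difference. FPKM divides by the length of an annotated model that is not given in the sources used here, and which 3' end a library holds was not measured. Hist1h4d, among the 9 long genes with 1138 bases, and Hist1h4k (312) had the same value of 1 fragment. The lengths used here are therefore not in all cases those behind the FPKM.

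**Figure D4:**
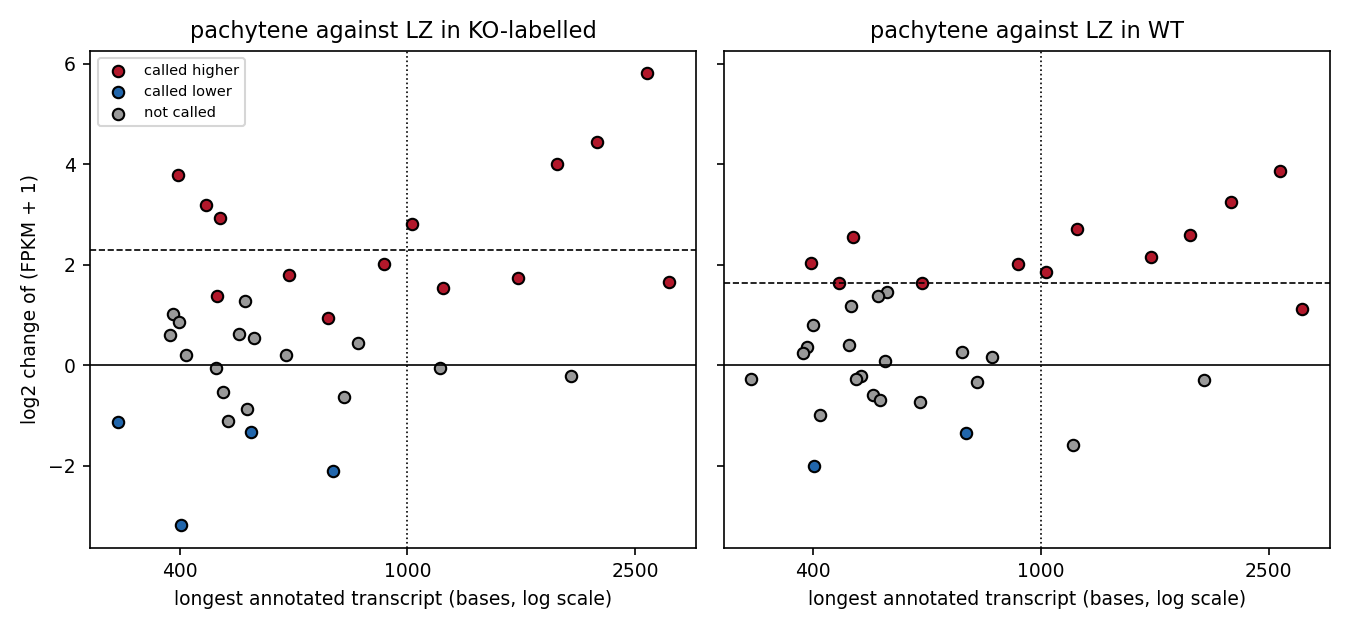
Log2 change between pachytene and LZ cells (y axis) against the length of the longest annotated transcript (x axis, log scale) for the 34 tested histone genes, in KO-labelled (left) and WT cells (right). The dashed line is the median of all genes tested (2.29 and 1.64), the dotted line marks 1000 bases, and Hist2h2be and Hist3h2a, right of that line, have the highest values in both panels. The third highest is Hist2h3c1 in KO-labelled cells, also right of the line, and Hist1h2bc (2.72) in WT cells, ahead of Hist2h3c1 (2.59).

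KO-labelled and WT cells were then compared at each stage. At pachytene, 3 histone genes were called higher and 6 lower, while 24.6% of all genes tested were called higher and 14.3% lower. The 3 that rose were Hist2h2be, Hist2h3c1 and Hist3h2a, all outside the Hist1 cluster, and the 6 that fell were Hist1h4a, Hist1h1a, Hist1h2ag, Hist1h3a, Hist1h2bp and Hist1h4m, all within it. The median log2 change was 1.01 over the 5 tested Hist2 genes, -0.52 over the 22 tested Hist1 genes other than the testis forms, and 0.37 over all genes, and after median-ratio scaling it was 0.64 over the Hist2 genes and -0.57 over the Hist1 genes. With genes at 0 throughout a group set to their bound or left out, the median of the other histone genes was -0.09 (26 genes) in place of -0.36 (31 genes). Those left out were Hist1h2bk, Hist1h4j, Hist1h4k and Hist1h4m, with changes under the median, and Hist1h3h, with one above it. The median thus moved up because mostly low genes were removed. All 3 KO-labelled libraries lay above all 3 WT libraries for 3 histone genes and below them for 4, against 36.4% and 18.0% of all genes. After median-ratio scaling 2 were called higher and 2 lower, against 3.57% and 9.62% of all genes.

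The levels of Hist2h2be given above did not overlap between KO-labelled and WT pachytene libraries, and its log2 change was 1.52 ± 0.30 (adjusted p = 0.00657). Hist3h2a likewise did not overlap and changed by 0.99 ± 0.21 (adjusted p = 0.00852). Both calls held in each of the 12 fits with 1 library left out and after median-ratio scaling (1.16 and 0.64). Hist2h3c1 changed by 1.47 ± 0.45 (adjusted p = 0.0260) without overlap, but was not called after median-ratio scaling (1.07, adjusted p = 0.233) and lost its call without KO-labelled pachytene replicate 1 or 2 or WT pachytene replicate 1 or 2, at 1.25 to 1.43.

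Hist1h2bp, an H2B gene, was the one histone gene called lower at both stages. It was at 85.3, 48.5 and 55.1 FPKM in KO-labelled pachytene libraries, against 156, 139 and 154 in WT pachytene libraries. At LZ it was at 25.6, 7.41 and 24.4 FPKM in KO-labelled libraries, against 42.0, 66.3 and 38.8 in WT libraries. The genotypes did not overlap at either stage. The fragments numbered 34 to 68 in KO-labelled against 189 to 223 in WT libraries at pachytene, and 48 to 177 against 174 to 363 at LZ. The log2 change was -1.27 ± 0.39 at pachytene (adjusted p = 0.0259), and after median-ratio scaling it was -1.59 (adjusted p = 0.0216). Its call was lost without KO-labelled pachytene replicate 2 or WT pachytene replicate 1 or 2, at -1.33 to -1.11.

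Hist1h1a was called lower in KO-labelled than in WT pachytene cells (adjusted p = 0.00618), on 0 against 15 fragments, and the call held in each fit with 1 library left out. The limit of 3 fragments lay 2.70-fold under the observed WT mean, whose own counting error is not included. Hist1h4a, an H4 gene, was at 4.42, 5.03 and 12.7 FPKM in KO-labelled pachytene libraries, against 17.4, 48.5 and 41.2 in WT pachytene libraries, on 1, 1 and 3 fragments against 6, 21 and 17. The groups did not overlap and the log2 change was -2.14 ± 0.76 (adjusted p = 0.0420), but the call was lost in 8 of 12 fits with 1 library left out, at -2.58 to -1.87. Hist1h2ag, an H2A gene, had 0 fragments in the KO-labelled pachytene group and 0, 2 and 8 in the WT libraries. It was called lower (adjusted p = 0.0455) and lost its call in 8 such fits. The limit of 3 fragments lay 1.77-fold under the observed WT mean, which rested mostly on WT pachytene replicate 3, so this is not a firm bound. Hist1h3a had 1, 0 and 0 against 1, 7 and 5 fragments and lost its call in 4. Hist1h4m had 0 against 3 fragments, at or under the limit in both groups, and its call (adjusted p = 0.0422) was lost in 7 of the 12 fits.

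At LZ no histone gene was called higher by limma and 1, Hist1h2bp, was called lower, while 0.136% of all genes tested were called higher and 12.9% lower. At an unadjusted p under 0.05 there were 0 histone genes higher and 4 lower. The share of all genes under this threshold was not computed, and is at least the called 0.136% and 12.9%. All 3 KO-labelled libraries lay above all 3 WT libraries for 0 histone genes and below them for 6, against 0.935% and 36.5% of all genes. After median-ratio scaling 0 were called in either direction, against 0.390% higher and 0.688% lower of all genes. The change of Hist1h2bp was -1.45 ± 0.39 (adjusted p = 0.0329), against a median of -0.43 over all genes. It was not called after median-ratio scaling (-0.91), nor without KO-labelled LZ replicate 2 or 3 or WT LZ replicate 1 or 2, at -1.70 to -0.90. The 3 genes that were higher at pachytene gave -0.43 ± 0.30 for Hist2h2be, -0.22 ± 0.21 for Hist3h2a and 0.06 ± 0.45 for Hist2h3c1 at LZ, none of them called.

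**Figure D5:**
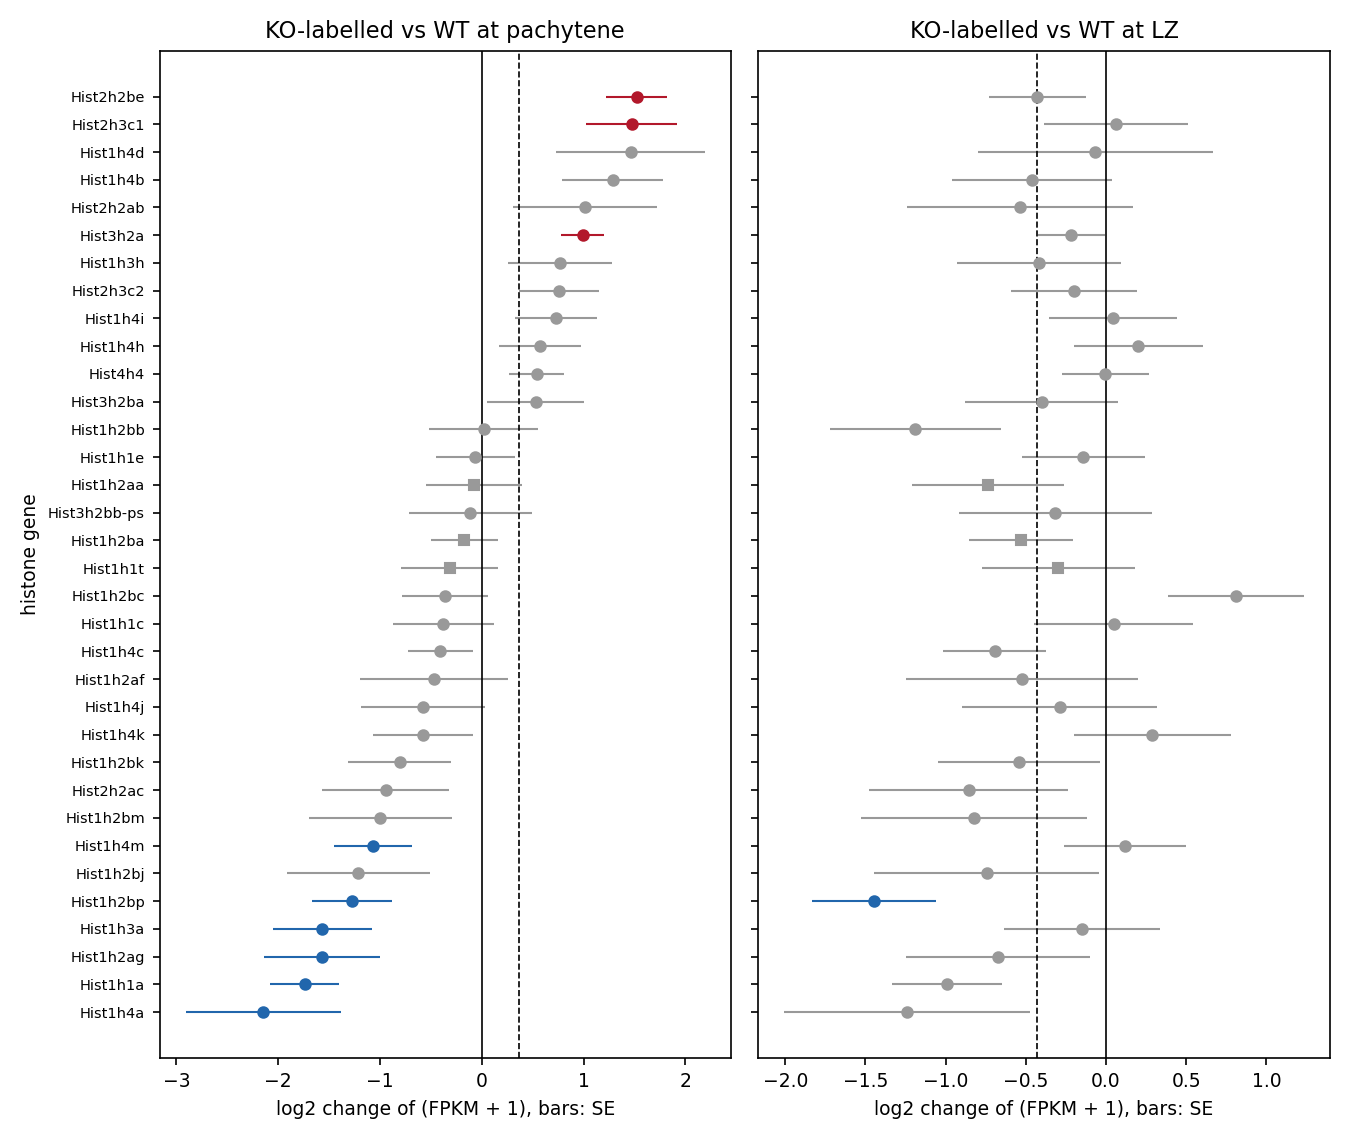
Log2 change between KO-labelled and WT cells of the 34 tested histone genes at pachytene (left) and LZ (right), with SE bars, red and blue for genes called higher and lower, and squares for testis forms. The dashed line is the median of all genes tested, 0.37 at pachytene and -0.43 at LZ, and the 3 testis forms are not called at either stage.

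The difference between the KO effects of both stages was tested as an interaction. Hist2h2be and Hist3h2a were called, with a larger effect at pachytene, and no histone gene was called in the other direction, while 34.9% of all genes were called higher and 3.49% lower. At an unadjusted p under 0.05 there were 4 histone genes higher and 1 lower. The share of all genes under this threshold was not computed, and is at least the called 34.9% and 3.49%. After median-ratio scaling 0 were called higher and 1 lower (Hist1h2bc), against 2.37% and 4.36% of all genes. The difference was 1.95 ± 0.43 for Hist2h2be (adjusted p = 0.00679) and 1.21 ± 0.30 for Hist3h2a (adjusted p = 0.00968), against a median of 0.72 over all genes. After median-ratio scaling it was 1.21 (adjusted p = 0.138) and 0.31 (adjusted p = 0.412), so neither was called. For Hist1h2bp the difference was 0.17 ± 0.55 (adjusted p = 0.824).

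Some lists of cell markers differed between the same groups. The summed level of 12 round spermatid markers was 1888 to 9773 FPKM in KO-labelled pachytene libraries, against 38041 to 45900 in WT pachytene libraries, with 0 of 12 called higher and 10 lower, against 24.6% and 14.3% of all genes, and 10 lower also after median-ratio scaling. At LZ the sum was 811 to 5696 FPKM in KO-labelled libraries, against 14954 to 32273 in WT libraries, with 0 called higher and 7 lower, against 12.9% of all genes lower, and none called after median-ratio scaling. None of these markers was at 0 in all 3 libraries of a group. Of 12 spermatogonial markers 11 were called lower in KO-labelled than in WT pachytene cells (10 after median-ratio scaling), and of 6 peritubular and endothelial markers tested 4 were lower and 1 higher (4 and 0). Of 12 pachytene markers 8 were called higher and 0 lower in the same comparison (2 and 0), with a median log2 change of 0.88, beside 0.99 for Hist3h2a. At LZ 0 of these 12 were called higher and 8 lower (0 and 0), against 12.9% of all genes lower, with a median of -1.04. Of 13 leptotene and zygotene markers tested, 1 was called higher and 5 lower between genotypes at pachytene (0 and 5). Of 8 Sertoli markers tested 0 were higher and 1 lower there (0 and 3), and of 7 blood and macrophage markers 1 and 1 (0 and 0). Of 8 Leydig cell markers 8 were called higher in pachytene than in LZ cells in both genotypes, against 76.8% of all genes in KO-labelled and 80.9% in WT cells, and 7 after median-ratio scaling in each. Their sums were 1375 to 5517 FPKM in KO-labelled pachytene, 2349 to 8740 in WT pachytene, 3.44 to 89.0 in KO-labelled LZ and 5.38 to 17.8 in WT LZ libraries. The part of these cells in the histone values was not tested.

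Factors that make and process histone mRNA were read from a list of 24 genes. In pachytene against LZ cells 22 were called higher and 1 lower in KO-labelled cells, and 21 and 0 in WT cells, with medians of 2.66 and 1.73. Of all genes 76.8% were called higher in KO-labelled and 80.9% in WT cells, and median-ratio scaling gave 5 of the list higher and 8 lower, and 3 and 6. Lsm10, a protein of the U7 particle that cuts histone pre-mRNA, had stage changes of 4.66 ± 0.27 in KO-labelled and 3.85 ± 0.27 in WT cells. Coil (coilin, of Cajal bodies) had 4.69 ± 0.27 and 3.08 ± 0.27, and Cstf2t, the polyadenylation factor known from male germ cells, 3.84 ± 0.24 and 2.73 ± 0.24. The calls of these 3 genes held after median-ratio scaling. In KO-labelled against WT pachytene cells 7 were called higher (1 after median-ratio scaling), against 24.6% of all genes, and 1 lower, against 14.3%, namely Cstf2, the paralogue of Cstf2t, at -1.58 ± 0.30 (adjusted p = 0.00526). Coil was higher by 1.06 ± 0.27 (adjusted p = 0.0154). At LZ 1 was called lower, Cstf3, at -0.75 ± 0.19, and was not called after median-ratio scaling (-0.18).

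Among histone chaperones, 22 of 24 listed genes were tested, and in pachytene against LZ cells 19 were called higher and 1 lower in KO-labelled cells, and 20 and 0 in WT cells. This stands against 76.8% and 2.83% of all genes in KO-labelled and 80.9% and 0.487% in WT cells, and median-ratio scaling gave 7 of the list higher and 6 lower, and 4 and 4. Nasp, a carrier of H3 and H4, changed by 4.57 ± 0.23 in KO-labelled and 2.87 ± 0.23 in WT cells, and Chaf1a, of the assembly factor CAF-1, by 4.91 ± 0.25 and 2.87 ± 0.25. In KO-labelled against WT pachytene cells 11 were called higher and 2 lower, against 24.6% and 14.3% of all genes, and 4 and 2 after median-ratio scaling. Chaf1a was higher by 1.03 ± 0.25 (adjusted p = 0.0146), whereas Mcm2, which binds histones as part of the replicative helicase, was at -2.91 ± 0.46 (adjusted p = 0.00210) and Rbbp7 at -1.42 ± 0.22 (adjusted p = 0.00166).

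Replication and S phase genes numbered 30. In pachytene against LZ cells 21 were called higher and 5 lower in KO-labelled cells and 19 and 0 in WT cells, with medians of 1.78 and 1.05, under the medians of all genes. Of all genes 76.8% and 80.9% were called higher, and median-ratio scaling turned the counts of the list to 8 higher and 17 lower, and 3 and 19. Pcna, the sliding clamp of replication, changed by 3.98 ± 0.21 in KO-labelled and 2.71 ± 0.21 in WT cells. In KO-labelled against WT pachytene cells 9 were called higher and 6 lower, against 24.6% and 14.3% of all genes, or 1 and 7 after median-ratio scaling. The lowest were Mcm2, Tk1 (thymidine kinase, -2.44 ± 0.44), Fen1 (flap endonuclease, -1.66 ± 0.29) and Cdt1 (licensing factor, -1.59 ± 0.27). At LZ 3 were called lower, Cdc6 (-1.02 ± 0.28), Cdt1 (-0.98 ± 0.27) and Tyms (-0.78 ± 0.22), and none of the 3 was called after median-ratio scaling, at -0.70, -0.46 and -0.33.

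Replication-independent variants, most of which can be made outside S phase from polyadenylated mRNA, were tested for 14 of 16 listed genes. In pachytene against LZ cells 9 were called higher and 1 lower in KO-labelled cells, and 9 and 0 in WT cells, against 76.8% and 80.9% of all genes higher, while median-ratio scaling gave 4 higher and 6 lower, and 5 and 5. H2afy (macroH2A1) changed by 4.51 ± 0.19 in KO-labelled and 3.89 ± 0.19 in WT cells, and H2afz (H2A.Z) by 4.24 ± 0.23 and 3.12 ± 0.23. In KO-labelled against WT pachytene cells 2 were called higher and 5 lower, against 24.6% and 14.3% of all genes, and 1 and 5 after median-ratio scaling. Those named by the rule were Cenpa, the centromeric H3, at -3.09 ± 0.40, H2afb1 at -2.63 ± 0.67, and the spermatid linker histones H1fnt at -2.37 ± 0.70 and Hils1 at -2.36 ± 0.63. At LZ 3 were called lower, H2afb1 (-2.77 ± 0.67), H1fnt (-2.33 ± 0.70) and H3f3a, which encodes H3.3 (-0.75 ± 0.20), and none of the 3 was called after median-ratio scaling, at -2.22, -1.82 and -0.16. H1fnt and Hils1 are genes of spermatids, and the round spermatid markers were lower in the same KO-labelled libraries, as given above.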

How the data were processed

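RNA of 12 libraries of sorted mouse spermatocytes was analysed, 3 per group. Per the submitters' processing notes, TopHat2 2.1.1 and Cufflinks 2.2.1 and the build mm9 were used. The deposited values are FPKM per gene, which the authors scaled between libraries with ERCC spike-in RNA. The annotation, the formula of the scaling and the handling of fragments that match several genes are not given in the sources used here. The table held 12 named library columns, and 4 columns without a name were not used. It held 0 ERCC entries, and read totals per library are not analysed here.

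Genes at 1 FPKM or more in at least 3 of the 12 libraries were kept (15400). Values were transformed as log2(FPKM + 1), so that changes of low genes are understated. A linear model of the 4 group means was fitted in limma 3.58.1 (R 4.3.3), with variances shrunk along a trend in mean level. Genes were called at a p under 0.05 after Benjamini-Hochberg adjustment over all genes, two-sided. The fit was tested on simulated data. Log2 changes are given with their SE. Median-ratio scaling set the median ratio of each library to the genes' geometric means to 1. Other alternatives were a pseudocount of 5, no filter, a filter of 5, the 6 libraries of a comparison alone, a replicate block, and leaving out each library. Fragment steps were read with Python 3.11.15 from values listed to enough digits, with a tolerance of 0.02 steps, and a count of 0 was given the limit of 3 fragments over the group. Fold bounds set this limit against the observed mean of the other group, whose own counting error is not included.

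The members, gene lists and tests were chosen with earlier results of these data known. The named genes were the 3 testis forms, the called other histone genes with the 5 highest and 5 lowest changes in each comparison, the 5 with the highest mean, up to 4 called genes per list with the largest change, and Rnaseh1. Hist1h1b, outside this rule, was named for its value. Sequences came from RefSeq (60 of the 68 genes matched to 1 promoter) and GENCODE M21, both on GRCm38, a later build than mm9, so coordinates belong to the sequences only.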

Additional observations from a re-analysis of the deposited data

Results flagged for a closer look

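The effect of the KO label on Hist2h2be differed between the stages by the interaction test of limma. The KO effect was 1.52 at pachytene and -0.43 at LZ, a difference of 1.95 (log2), and KO-labelled libraries were higher than WT libraries in 3 of 3 at pachytene and overlapped them at LZ. The effect on Hist3h2a differed in the same way, with 0.99 at pachytene and -0.22 at LZ, a difference of 1.21 (log2). The median of this difference over all genes tested was 0.72, and neither gene was called after median-ratio scaling.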

How the results depend on the processing

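Counts of histone genes called were recomputed under 6 alternatives and with each library left out. In KO-labelled against WT cells at LZ, the 1 gene called lower became 0 without a filter, after median-ratio scaling, in the 6 libraries alone, and over leave-one-out fits the count ran from 0 to 1. At pachytene the 3 called higher ran from 2 to 7 (7 without KO-labelled pachytene replicate 3), and the 6 called lower became 3 with a filter of 5, 2 after median-ratio scaling and 1 to 6 over leave-one-out fits (1 without KO-labelled or WT pachytene replicate 2). In pachytene against LZ cells, the 12 called higher in WT became 2 after median-ratio scaling (11 to 14 leave-one-out) and the 2 called lower became 1 with a filter of 5, 14 after median-ratio scaling and 2 to 4 leave-one-out. In KO-labelled cells the 14 called higher became 4 after median-ratio scaling (12 to 15 leave-one-out) and the 4 called lower became 1 with a filter of 5, 17 after median-ratio scaling and 2 to 5 leave-one-out. For the interaction, the 2 called higher became 0 after median-ratio scaling (2 to 4 leave-one-out), and the 0 called lower became 1 without a filter or after median-ratio scaling (0 to 1 leave-one-out). The cause of these shifts was not tested.

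Directions turned after median-ratio scaling for Hist1h2aa (-1.54 between stages in WT, -1.66 in KO-labelled cells, -0.12 in the interaction), Hist1h2ba (-1.76, -2.28 and -0.53, and 0.037 between genotypes at LZ), Hist1h2bp (-0.40 and -1.08 between stages) and Hist1h2bc (-1.35 in KO-labelled cells). Leaving out 1 library turned uncalled changes of the testis forms. Between genotypes at pachytene Hist1h1t ran from -0.73 to 0.37, Hist1h2aa from -0.65 to 0.37 and Hist1h2ba from -0.42 to 0.10. Hist1h2ba ran from -0.030 to 0.50 between stages in WT, and Hist1h1t from -0.43 to 0.67 in the interaction. Of the other values of single genes, 760 kept direction and side of the threshold, 80 lost the call and 3 gained it.

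The replicate number was fitted as a replicate block, which raised the genes called lower in pachytene against LZ in WT cells to 4 and left the other counts within 1.5 times. Same-numbered libraries did not deviate together throughout (correlations from -0.17 to 0.26), so the number is not taken as a pairing. The value of 1 fragment limits the low genes at pachytene, where for Hist1h4a it is 2.31 to 5.03 FPKM on the spike-in scale. Fragments summed over the histone genes with a readable step were 3470 in KO-labelled pachytene and 3581 in WT pachytene. They were 2763 in KO-labelled LZ and 3097 in WT LZ libraries. Whether depth or the scaling sets the larger value was not tested.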
